A study of Homo sapiens with 6 samples.

Results

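The genes described here were the D-type cyclins, their kinases CDK4 and CDK6, 4 CDK inhibitors and the retinoblastoma gene RB1, in all 10 of the 61806 genes of the deposited table. They were chosen by symbol, namely CCND1, CCND2, CCND3, CDK4, CDK6, CDKN1A, CDKN1B, CDKN1C, CDKN2C and RB1, and each symbol matched 1 row. RNA was measured in cultured cells labelled as MDA-MB-231, an established human line of triple-negative breast cancer (BC). There were 3 control libraries and 3 libraries from cells given Parishin B (PB), a compound studied as an inhibitor of the pseudokinase TRIB3. The study's text gives 20 μM PB and 24 h for the treated cells. The labels name no other agent and do not say what the control cells received. The labels assign all 6 libraries to this 1 cell line. Whether both groups were grown from the same cell stock is not stated. Nothing in the labels says whether the replicates were separate cultures, so the p-values below rest on a spread between these libraries that may be technical. The main fit shared 1 spread across genes, so its p-values do not measure the spread of a single gene. The question was how PB changed the transcripts of the cyclin D-CDK4/6-RB module in BC cells.

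D-type cyclins are made in response to growth signals and bind CDK4 or CDK6. The active kinases phosphorylate RB1, a pocket protein that otherwise holds E2F transcription factors and keeps S phase genes low. INK4 proteins such as p18, the product of CDKN2C, bind CDK4 and CDK6 directly. The CIP/KIP proteins p21, p27 and p57, the products of CDKN1A, CDKN1B and CDKN1C, bind cyclin-CDK complexes and block CDK2, while p21 and p27 also help cyclin D and CDK4 to assemble. Much of the control of these proteins is by phosphorylation and degradation, which RNA-seq does not measure.

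The 3 D-type cyclins are close relatives that are told apart by their sequence, so the first 60 coding bases of each are shown 5′ to 3′ from GENCODE 29 transcripts (GRCh38). The capitals mark the codons of the LxCxE motif, with which D-type cyclins bind RB1. It lay at codons 5 to 9 of CCND1 and at codons 3 to 7 of CCND2 and CCND3.
CCND1: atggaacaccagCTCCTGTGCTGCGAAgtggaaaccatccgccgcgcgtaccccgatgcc
CCND2: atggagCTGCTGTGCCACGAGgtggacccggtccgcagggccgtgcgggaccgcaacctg
CCND3: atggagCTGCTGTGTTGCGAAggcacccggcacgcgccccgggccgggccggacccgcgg
The aligned coding sequences were identical at 68.0% of positions between CCND1 and CCND2, at 63.7% between CCND1 and CCND3 and at 68.8% between CCND2 and CCND3. The longest run of bases shared exactly by any pair of the D-type cyclins was 23, for CCND1 and CCND2. CDK4 and CDK6 were identical at 64.4% of coding positions, with a longest shared run of 16. The pseudogenes CCND2P1, CCND3P1, CCND3P2 and CDK4P1 had 0 or 1 count in every library.

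Total counts were 16314420 to 21986948 in the control libraries and 15681655 to 18949638 in the PB libraries. Levels are given as FPKM, which divides a gene's count by its exon length and the library total, and changes as log2 fold changes of PB over control from edgeR's quasi-likelihood test with TMM scaling, with Benjamini-Hochberg adjustment over 24229 tested genes. A gene was a DEG where its adjusted p did not exceed 0.05 and its log2 fold change reached the fold line, 1 up or down. There were 1296 DEGs with higher and 1630 with lower counts in PB, so that 44.3% were higher. With scaling by library size alone, which moved the median of all tested genes from 0.011 to 0.138, 57.5% of the DEGs were higher.

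Before the members, the libraries were compared with what is known of the line. Of 10 mesenchymal markers, 9 had a mean of at least 1 FPKM in either group, and their summed FPKM was 1268.0 to 1292.2 in control and 1201.8 to 1209.1 in PB. Of 18 epithelial markers, 6 had at most 3 counts in every control library and 10 in every PB library, with CEACAM6 and AGR2 at 0 in PB. Their summed FPKM was 454.6 to 460.8 in control and 160.3 to 165.7 in PB. Without the keratins KRT8 and KRT18 it was 64.7 to 66.7 in control and 3.26 to 3.78 in PB. Most of that control sum came from a further keratin gene, KRT7, at 44.5 FPKM in control and 0.44 in PB. CDH1 (E-cadherin, the epithelial adhesion protein) had 428, 387 and 522 counts in control and 2, 0 and 2 in PB. Of the 12 epithelial markers tested 9 were DEGs with lower counts in PB and 1, the splicing regulator ESRP1, rose by 1.63 on the log2 scale, while among the mesenchymal markers CAV1 fell by 1.16. Among all genes of the table, 113 reached 30 counts in each control library and stayed at 3 or fewer in each PB library, against 1 gene the other way. These differences separated the libraries by group just as the treatment did, so a difference between cell stocks and an effect of PB cannot be told apart in any value below. In bulk RNA, fewer cells of a type and less RNA per cell cannot be told apart.

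Of the 10 members, 3 were DEGs. CCND2 and CDKN1C rose and CDKN2C fell. The share of DEGs among all tested genes was 12.1%, with 5.35% higher and 6.73% lower. All 10 members passed the adjusted p alone with TMM scaling, 3 higher and 7 lower. This was beside 50.2% of all tested genes (24.1% higher and 26.1% lower). Thus 7 members passed but changed by less than the fold line. With library size alone 9 members passed, all but CDK4, and CCND1 turned from lower to higher, at 0.05 (edgeR adjusted p = 0.0373). The median log2 fold change was -0.19 over the members and 0.011 over all tested genes. FPKM did not overlap between the groups for 8 of the 10 members, where the share over all tested genes was 55.6%. The members with overlapping groups were CDK4 and RB1.

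**Figure D1:**
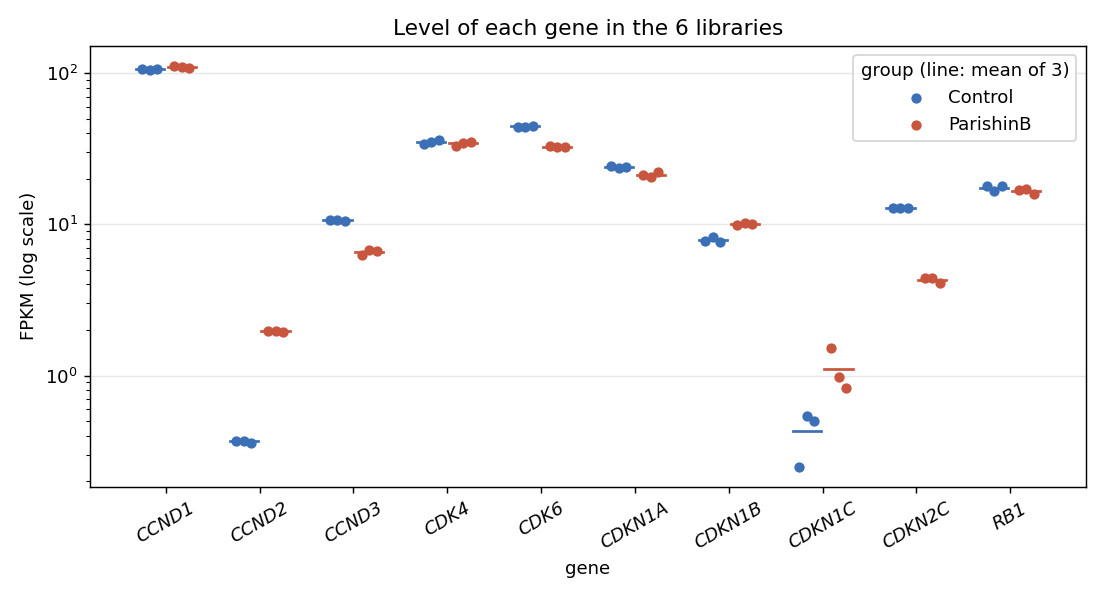
FPKM on a log axis for the 10 genes in each of the 6 libraries, with control in blue, PB in red and a line at the mean of 3. CCND2 moved from about 0.37 to 1.96 FPKM and CDKN2C from 12.9 to 4.30, while CCND1 stayed between 104.70 and 111.50 in every library.

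CCND1 is the D-type cyclin that breast cancers most often overexpress. It had the highest FPKM of the members, at 105.87, 104.70 and 107.06 in control and 111.50, 109.59 and 108.29 in PB. Every PB library was above every control library by this measure. The TMM-scaled change was the other way, a log2 fold change of -0.08 (SE 0.023, 95% interval -0.13 to -0.04, edgeR adjusted p = 0.0012). With library size alone the change was 0.05. The scaling set the sign for CCND1, which lay 0.09 below the median of all tested genes under either scaling, so no direction is given. CCND1 lies at chr11:69641156-69654474 (+, hg38 coordinates of the table) and shares bases with LTO1 on the other strand, which had 1106 counts in control and 1317 in PB against 27969 and 26385 for CCND1.

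CCND3 is the D-type cyclin best known from lymphocytes, and it was the second of the 3 in level. It was at 10.64, 10.65 and 10.55 FPKM in control and at 6.28, 6.76 and 6.70 FPKM in PB. The PB libraries were all lower, and the ranges were far apart compared with the spread inside each group. The log2 fold change was -0.82 (SE 0.049, edgeR adjusted p = 2.924e-62), a level of 0.566 of control, which did not reach the fold line. CCND3 lies at chr6:41934934-42050357 (-).

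CCND2, the D-type cyclin that many breast cancers silence, rose the most of the 10 genes. It had 48, 50 and 64 counts in control and 249, 247 and 295 in PB, or 0.37, 0.37 and 0.36 FPKM against 1.96, 1.97 and 1.95 FPKM. The replicates of each group were almost equal and the groups did not overlap. CCND2 was 4.88-fold higher in PB, a log2 fold change of 2.29 (SE 0.13, 95% interval 2.04 to 2.53, edgeR adjusted p = 5.05e-73). It lies at chr12:4269771-4305353 (+). The antisense gene CCND2-AS1 overlaps its start on the other strand and had 0, 1 and 3 counts in control and 12, 10 and 20 in PB, at least 4.94-fold higher against a floor of 3 counts per library. Whether the libraries kept the strand is not given in the sources used here, so reads of these overlapping genes cannot be told apart. Of 4 tested genes within 200 kb of CCND2, only CCND2-AS1 was a DEG, beside 12.1% of all tested genes. The neighbours C12orf4 and TIGAR had log2 fold changes of -0.15 and -0.27.

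The summed FPKM of the D-type cyclins was 116.9 ± 1.13 (SD, n = 3) in control and 118.3 ± 1.40 (SD, n = 3) in PB. Within it CCND1 made up 90.6% in control and 92.8% in PB. The share of CCND3 went from 9.08% to 5.56% and that of CCND2 from 0.314% to 1.66%. Ratios within a library do not depend on the scaling. The log2 ratio of CCND2 to CCND3 was -4.85, -4.85 and -4.87 in control and -1.68, -1.78 and -1.78 in PB, a mean difference of 3.11. That of CCND2 to CCND1 rose by 2.37 and that of CCND3 to CCND1 fell by 0.74, in 3 of 3 PB libraries against every control library. Across 6 such ratios the exact permutation test gave p = 0.1 (two-sided, also 0.1 after adjustment), the smallest value that 3 against 3 libraries allow, so none could pass.

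**Figure D2:**
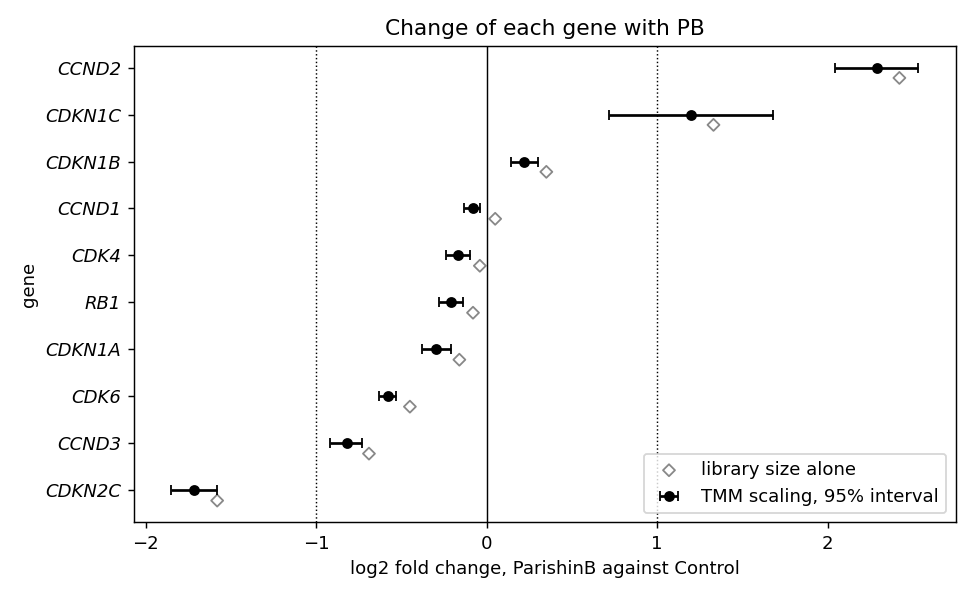
Log2 fold change of PB over control for each gene with TMM scaling (black, bars are 95% intervals from 3 libraries per group) and with library size alone (open diamonds), with dotted fold lines at -1 and 1. CCND2 and CDKN2C lay past the lines with their whole intervals, the interval of CDKN1C, 0.72 to 1.68, crossed its line, and CCND1 changed sign with the scaling.

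CDK6, a catalytic partner of the D-type cyclins, fell in PB. It was at 44.25, 44.25 and 44.98 FPKM in control and 32.87, 32.65 and 32.41 FPKM in PB. All PB libraries were lower and the groups did not overlap. The log2 fold change was -0.58 (SE 0.024, edgeR adjusted p = 6.816e-131), a level of 0.669 of control. CDK6 lies at chr7:92604921-92836573 (-), and its overlapping antisense gene CDK6-AS1 had only 60 counts in control and 49 in PB.

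CDK4, the other kinase, was at 33.72, 35.26 and 36.32 FPKM in control and 32.96, 34.54 and 35.24 FPKM in PB. The groups overlapped. The log2 fold change was -0.17 (SE 0.035, edgeR adjusted p = 5.483e-06) and was -0.04 with library size alone, where it no longer passed the test. CDK4 lies at chr12:57747727-57756013 (-) and overlaps TSPAN31, which rose by 0.95 on the log2 scale (edgeR adjusted p = 9.673e-55), and MARCHF9. TSPAN31 had 1163 counts in control and 2246 in PB against 6042 and 5362 for CDK4, and without strand the reads of the shared bases are uncertain.

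The order of the kinases by FPKM changed between the groups. In FPKM, CDK6 was above CDK4 in every control library and below it in every PB library. In PB the means were 32.6 and 34.2 FPKM and the ranges were apart by only the step from 32.87 to 32.96. By counts CDK6 was above CDK4 in both groups, with 30217 against 6042 in control and 20173 against 5362 in PB. The FPKM order depends on the exon lengths used, 12239 bases for CDK6 and 3094 for CDK4. The log2 ratio of CDK6 to CDK4 was 0.39, 0.33 and 0.31 in control and fell by 0.41 on average (exact permutation p = 0.1). The summed FPKM of CDK4 and CDK6 was 79.6 ± 1.67 (SD, n = 3) in control and 66.9 ± 0.946 (SD, n = 3) in PB, and the ratio of summed D-type cyclins to summed kinases was 1.47 and 1.77.

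CDKN2C encodes p18, an INK4 inhibitor whose gene is known as an E2F target. It fell the most of the 10 genes. It had 635, 660 and 856 counts in control and 211, 208 and 235 in PB, or 12.90, 12.77 and 12.90 FPKM against 4.40, 4.39 and 4.11 FPKM. All 3 PB libraries were far below the control libraries. CDKN2C was 3.28-fold lower, a log2 fold change of -1.72 (SE 0.07, 95% interval -1.85 to -1.58, edgeR adjusted p = 1.195e-130). It lies at chr1:50960745-50974634 (+), and its neighbour FAF1 had a log2 fold change of -0.15. Neither of the 2 tested genes within 200 kb was a DEG, beside 12.1% of all tested genes.

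The other INK4 genes did not follow CDKN2C. CDKN2B (p15) was at 8.30 ± 0.397 FPKM in control and 11.2 ± 0.442 in PB (SD, n = 3) and rose by 0.30 on the log2 scale (edgeR adjusted p = 8.464e-08). CDKN2A was at 9.86, 10.13 and 10.33 FPKM in control and 11.12, 10.92 and 12.01 FPKM in PB, with a log2 fold change of 0.04 (95% interval -0.07 to 0.14, edgeR adjusted p = 0.609). CDKN2D (p19) was at 8.17 and 9.21 FPKM, with a log2 fold change of 0.04 (95% interval -0.14 to 0.22, edgeR adjusted p = 0.741). CDKN2C thus made up 32.6% of the summed INK4 FPKM in control and 11.9% in PB, while the sum itself was 39.4 ± 1.33 and 36.1 ± 1.00 (SD, n = 3). MDA-MB-231 is known as a line that has lost CDKN2A and CDKN2B. Yet CDKN2A had 625 to 882 counts in control and 665 to 884 in PB. CDKN2B had 520 to 720 counts in control and 679 to 870 in PB. The neighbouring gene MTAP had 2089, 2184 and 2721 counts in control and 1518, 1526 and 1885 in PB. The CDKN2A and CDKN2B counts go against that background in every library of both groups. Whether the cells of either group were the labelled line was not tested. CDKN2A and CDKN2B also share bases with the antisense gene CDKN2B-AS1, which had 326 to 471 counts. Which exons gave the counts was not tested.

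Short motifs were searched on both strands in the 250 bases before each RefSeq start (GRCh38.p14), where 7 of the members matched with 12 windows. CCND1, CCND2 and CDKN1C had no entry. The only RB1 window, chr13:48476200-48476449 (+), lay inside the gene, so the bases before its first start at 48303744 were not searched. The E2F core GGCGGGAA was in 2.72% of 35116 windows of all genes and TTTGAA, the core of the CHR element, in 13.3%. GTAAACA, a FOXO site, was in 2.98% and TGATGNAA, a C/EBP-ATF element, in 3.14%. Among the 12 windows there was 1 match, the E2F core in a window of CDKN2C at chr1:50968456-50968705 (+), 132 bases before its start. This window also lies inside an untranslated exon of a longer GENCODE transcript. The match is a description of the letters only.

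Of the CIP/KIP genes, CDKN1A, at chr6:36676460-36687337 (+), had the highest FPKM and fell. It was at 24.35, 23.40 and 23.79 FPKM in control and 21.05, 20.52 and 22.11 FPKM in PB. The PB libraries were all lower, with a log2 fold change of -0.30 (SE 0.042, edgeR adjusted p = 8.58e-12). CDKN1B rose, from 7.74, 8.21 and 7.61 FPKM to 9.83, 10.21 and 10.01 FPKM. No PB library reached down to the control range, and the TMM-scaled log2 fold change was 0.22 (SE 0.039, edgeR adjusted p = 6.556e-08). Both were far below the fold line. By counts CDKN1B was above CDKN1A in both groups, 4017 and 4682 against 3958 and 3221. Their exon lengths are 9255 and 2996 bases, and their order and shares in FPKM depend on these lengths. The log2 ratio of CDKN1A to CDKN1B was 1.65, 1.51 and 1.64 in control and 1.10, 1.01 and 1.14 in PB (exact permutation p = 0.1). CDKN1B lies at chr12:12685498-12722369 (+) and overlaps GPR19 on the other strand, a DEG that fell by 1.08 on the log2 scale, with 627 counts in control and 297 in PB against 4017 and 4682 for CDKN1B.

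CDKN1C, an imprinted gene, rose from a low level and with the widest spread of the 10 genes. It had 10, 23 and 27 counts in control and 60, 38 and 39 in PB, or 0.25, 0.54 and 0.50 FPKM against 1.52, 0.98 and 0.83 FPKM. The groups did not overlap, but control replicate 1 was the lowest and PB replicate 1 the highest by a wide margin. The log2 fold change was 1.20 (SE 0.24, 95% interval 0.72 to 1.68, edgeR adjusted p = 2.934e-06). Without control replicate 1 it was 0.96 and without PB replicate 1 it was 0.91, both under the fold line, and the adjusted p over the fits tried went up to 0.0207. CDKN1C lies at chr11:2883213-2885775 (-). Of 7 tested genes within 200 kb, 2 were DEGs, beside 12.1% of all tested genes. These were CARS1 (cysteinyl-tRNA synthetase) with a log2 fold change of 1.35 and the imprinted transporter gene SLC22A18 with 1.24. The imprinted gene PHLDA2 between them was at 12.6 and 13.9 FPKM, with a log2 fold change of 0.01 (95% interval -0.18 to 0.20), and NAP1L4 fell by 0.59.

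The summed FPKM of CDKN1A, CDKN1B and CDKN1C was 32.1 ± 0.221 in control and 32.4 ± 0.621 in PB (SD, n = 3). The share of CDKN1A in it went from 74.2% to 65.6%, that of CDKN1B from 24.4% to 31.0% and that of CDKN1C from 1.34% to 3.43%. The ratio of this sum to that of the D-type cyclins was 0.275 ± 0.00400 in control and 0.273 ± 0.00732 in PB (SD, n = 3). The sums of both families overlapped between the groups.

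**Figure D3:**
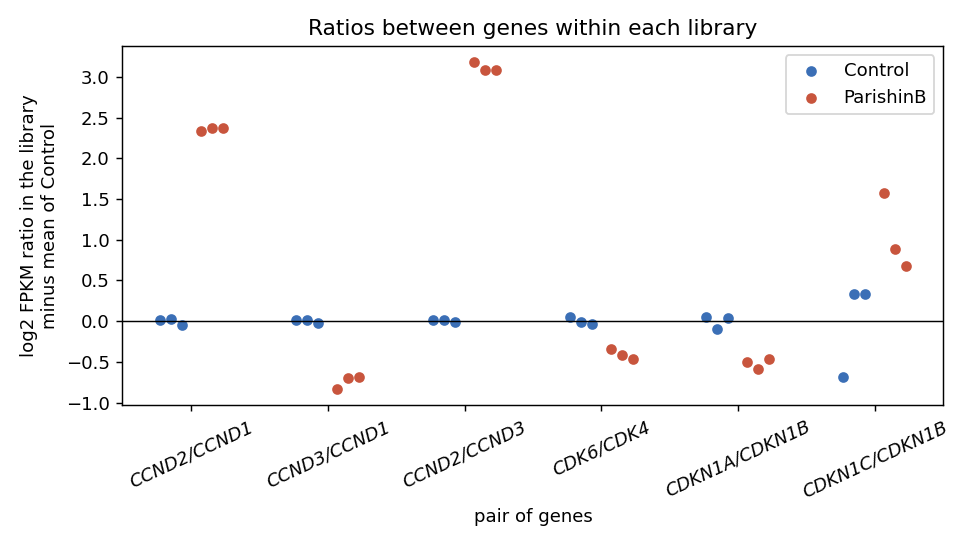
Log2 FPKM ratio of 6 gene pairs in each library minus the mean of the control libraries, with control in blue and PB in red. No pair overlapped between the groups, and the CDKN1C to CDKN1B ratio had the widest spread, from -4.95 to -3.93 in control and from -3.59 to -2.69 in PB before centring.

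RB1 was at 17.87, 16.64 and 17.81 FPKM in control and 16.90, 17.02 and 15.76 FPKM in PB. The groups overlapped. The log2 fold change was -0.21 (SE 0.035, edgeR adjusted p = 8.207e-09), and -0.08 with library size alone. RB1 lies at chr13:48303744-48599436 (+). Genes inside its span, RCBTB2 and LPAR6, had 271 and 23 counts in control against 6229 for RB1.

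The relatives and partners of RB1 moved unevenly. Beside this list and those below, 12.1% of all tested genes were DEGs, 5.35% higher and 6.73% lower. The adjusted p alone was passed by 50.2%, with 24.1% higher and 26.1% lower. Of 12 pocket protein, E2F and DP genes, 4 were DEGs, all lower, and 4 passed the adjusted p as higher and 7 as lower, with a median log2 fold change of -0.34. The DEGs were E2F2 at -1.99, E2F8 at -1.84, E2F1 at -1.46 and the E2F partner TFDP1 at -1.27. E2F1, the activator E2F that RB1 holds, went from 11.9 ± 0.892 to 4.77 ± 0.467 FPKM (SD, n = 3). Below the fold line, the pocket protein gene RBL1 fell by 0.69 and RBL2 rose by 0.29. E2F7, a repressor E2F, rose by 0.53, against the direction of E2F8.

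The genes that E2F factors are known to drive in S phase fell together. Of 22 such genes 20 were DEGs, all lower, and all 22 passed the adjusted p as lower, with a median log2 fold change of -1.53. The sliding clamp gene PCNA went from 115.3 ± 1.96 to 26.2 ± 0.689 FPKM (SD, n = 3), with a log2 fold change of -2.27. Thymidylate synthase TYMS and the MuvB partner MYBL2 were both at -2.25, and ribonucleotide reductase RRM2 at -2.13. The members under the fold line, named after their values were seen, were CCNE1 (cyclin E1) at -0.59 and the licensing factor CDT1 at -0.60. CDKN2C, at -1.72, and CCND3, at -0.82, lay inside the wide range of this list, -2.27 to -0.59. CDK6, at -0.58, lay just above its upper end, CCNE1 at -0.588, and the remaining members lay higher. The share of all tested genes inside this range was not counted. The MuvB core binds pocket proteins to repress cell cycle genes, helped by the kinase DYRK1A. Of these 6 genes 1 passed the adjusted p as higher, LIN37 at 0.54, and 4 as lower, all short of the fold line. The lower genes were LIN9 at -0.60, RBBP4 at -0.50, LIN52 at -0.19 and LIN54 at -0.12, the last at 0.01 with library size alone, while DYRK1A was at 0.09 (edgeR adjusted p = 0.0666).

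**Figure D4:**
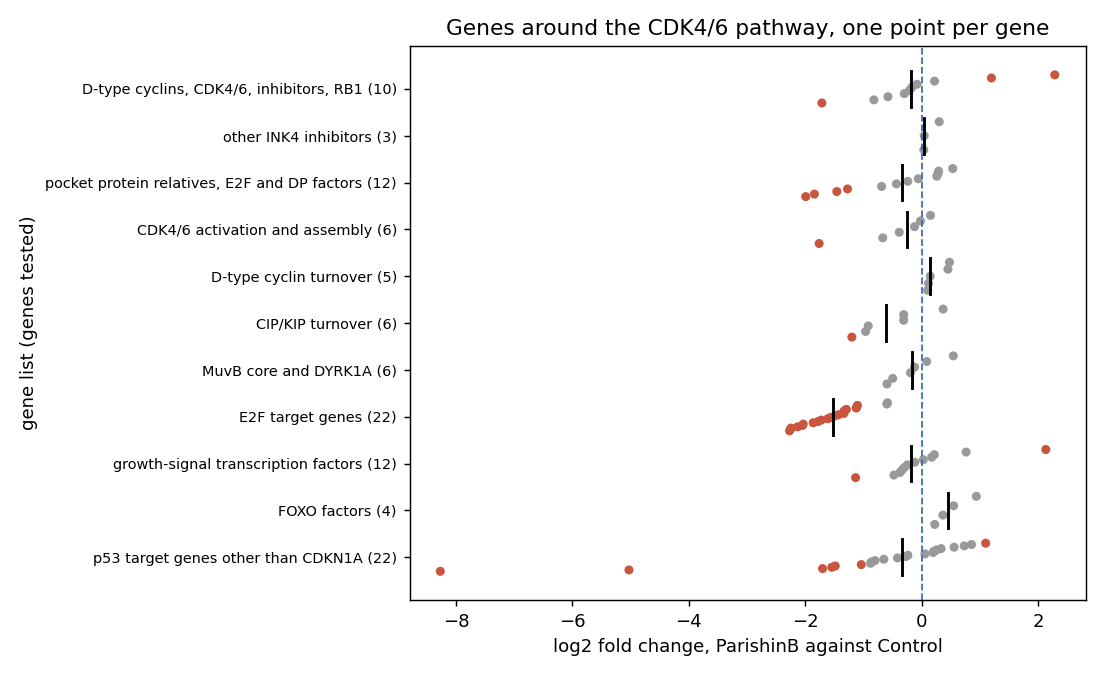
Log2 fold change of each tested gene of the member list and of 10 pathway lists, with DEGs in red, other genes in grey, the list median as a black bar and the median of all tested genes as a dashed line. The E2F target genes all lay at or below -0.59, and the leftmost point, SPATA18, is a fitted value against a group with 0 counts.

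Genes that act on the members were read from lists. Of 6 genes for activation and assembly of CDK4/6, CDC25A, a phosphatase that activates CDKs, was the only DEG, at -1.76. The chaperone genes HSP90AB1 and CDC37, which help CDK4 to fold, fell by 0.67 and 0.38 on the log2 scale, and CDK7 of the CDK-activating kinase rose by 0.15. CCNH, the cyclin of CDK7, was at -0.12 and at 0.01 with library size alone. MNAT1 was at -0.02 (edgeR adjusted p = 0.752). Of 5 genes for turnover of D-type cyclins 3 passed the adjusted p, beside 50.2% of all tested genes. Those 3 were higher and short of the fold line. The F-box genes FBXW8 and FBXO31 rose by 0.48 and 0.45 and GSK3B by 0.12, while FBXO4 was at 0.15 and AMBRA1 at 0.10, both not past the adjusted p.

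Of 6 genes for turnover of CIP/KIP proteins, 5 passed the adjusted p as lower and 1 as higher, with a median log2 fold change of -0.61. DTL, a receptor of the ligase that degrades p21 in S phase, was the DEG, at -1.20, and at -0.98 with limma on log2(FPKM + 1), short of the fold line. SKP2 and CKS1B, which bring p27 to its ligase, fell by 0.92 and 0.96, short of the fold line, and without PB replicate 3 CKS1B was a DEG at -1.02. SKP1 and CUL1 both fell by 0.31. RNF123, another ligase gene for p27, rose by 0.37.

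Upstream transcription factors were mixed. Of 12 growth-signal factors, EGR1 rose by 2.13 on the log2 scale, from 2.67 ± 0.0866 to 12.8 ± 0.126 FPKM (SD, n = 3), and FOSL2 fell by 1.14. The other 10 were not DEGs, with a median of -0.18 over the list. The FOXO genes, whose products activate CDKN1B, were FOXO3 at 0.55, FOXO4 at 0.37 and FOXO6 at 0.94, which passed as higher, and FOXO1 at 0.22 (edgeR adjusted p = 0.152). All were short of the fold line with TMM. FOXO6 became a DEG with library size alone (1.07), without control replicate 2 (1.35) and without PB replicate 1 (1.04). It missed the edgeR adjusted p without control replicate 1 (0.0532), control replicate 3 (0.173) or PB replicate 2 (0.0863). With all libraries it also missed with DESeq2 (adjusted p = 0.12) and with limma on log2(FPKM + 0.1) (adjusted p = 0.0539). FOXO6 had 31 counts over the control libraries and 60 over the PB libraries.

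CDKN1A is a classical p53 target, and the labelled line, MDA-MB-231, carries a mutant p53. The p53 status of these libraries was not tested. Of 22 other p53 target genes 7 were DEGs, or 4 where only genes with a mean FPKM of 1 or more were tested, and 3 with limma on log2(FPKM + 1). TNFRSF10B, a death receptor gene, rose by 1.10, and 6 genes fell. SPATA18 had 34, 30 and 52 counts in control and 0 in every PB library, at least 11.5-fold lower against 3 counts per library. PHLDA3 had 94, 83 and 130 counts in control and 3, 6 and 0 in PB. Its fitted change of -5.03 thus rests on PB counts near the floor. AEN was at -1.70, BTG2 at -1.54, FAS at -1.49 and POLH at -1.04, where FAS and POLH were named after their values were seen. By the adjusted p alone the list was divided, with 13 genes lower and 8 higher. Its median was -0.34, beside -0.30 for CDKN1A.

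Orders by FPKM depend on the exon lengths used. By counts, CDK6 was above CCND1 in control, with 30217 against 27969. In control the order of the FPKM levels was CCND1, CDK6, CDK4, CDKN1A, RB1, CDKN2C, CCND3, CDKN1B, CDKN1C and CCND2. Only the last neighbours, CDKN1C and CCND2, overlapped. In PB the order was CCND1, CDK4, CDK6, CDKN1A, RB1, CDKN1B, CCND3, CDKN2C, CCND2 and CDKN1C, with no neighbours overlapping. CDKN2C thus went from the sixth to the eighth place and CDKN1B from the eighth to the sixth.

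The genes with the profile most like that of each DEG member were taken by the Euclidean distance over 6 libraries of log2(FPKM + 0.1) minus the control mean, among 12447 genes. For CCND2 they were SLC1A4 (distance 0.052), SYT1 (0.11) and NBR2 (0.13). For CDKN2C they were CLSPN (0.067), TM4SF1 (0.073) and NUF2 (0.077). For CDKN1C they were CAPN1-AS1 (0.48), POTEE (0.50) and H2BC21 (0.51), much farther away. The libraries of each group share the treatment and their depth, so these distances are a description.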

How the data were processed

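RNA-seq libraries of cells labelled as MDA-MB-231 (3 control, 3 PB) were grouped by their sample labels, and each column was matched to its sample by name. The authors deposited raw counts per gene and FPKM values. Per the submitters' processing notes, HTSeq 0.6.1, Cufflinks 2.2.1, DESeq2 and hg38 were used. The aligner and the strandedness are not given in the sources used here. The FPKM values equalled the count scaled by exonic length and total count for 100% of values within 0.005. Of 61806 genes, 20417 had no symbol.

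The members and gene lists were chosen with earlier results of these data known. The test took the 24229 genes whose mean FPKM reached 0.1, with edgeR 4.0.16 in R 4.3.3, by its quasi-likelihood method with TMM, and DESeq2 1.42.0 and limma 3.58.1 served as alternatives. The test used 1 spread shared across genes by the fit, with a common dispersion of 0.000495. Besides the members, the rule named up to 4 DEGs with the largest change per list, all genes of lists of 6 or fewer, the 3 nearest profiles, and overlapping genes and neighbours of DEGs within 200 kb. Groups were taken to overlap by their FPKM ranges. Exact permutation tests were two-sided. The floor of 3 counts was 0.136 to 0.191 CPM and covers counting error only. Coding sequences were aligned with Biopython 1.88. Promoter motifs were chosen after the sequences were seen.

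Replicates of a group differed by a chi-square per degree of freedom of 1.45 to 1.92. On simulated counts for PB against control over 24229 genes, edgeR recovered 199 of 200 changed genes and called 1 of 24029 unchanged genes. All planted changes lay well past the fold line, in genes that were not near the floor, and counts were drawn from the fitted dispersion. High recovery was thus built in, and it does not bear on changes near or under the fold line.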

Additional observations from a re-analysis of the deposited data

How the results depend on the processing

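The alternatives were other scalings, filters, DESeq2, limma on FPKM, the replicate number as a block and each library left out. The count of DEGs among all tested genes, 2926, came to 1377 under the FPKM filter of 1, where 13533 genes were tested, and 825 with limma on log2(FPKM + 1), which shrinks low genes. CCND1 turned to 0.052 with library size alone and with limma on log2(FPKM + 0.1) and on log2(FPKM + 1). CDK4 did not pass under these 3 settings (-0.037, -0.035 and -0.034), nor RB1 under both limma fits (-0.074 and -0.071). CDKN1C was under the fold line with limma on log2(FPKM + 1), at 0.554, and was not tested under the FPKM filter of 1. CCND2 stayed between 1.12 and 2.42 and CDKN2C between -1.73 and -1.39 in 15 fits, past the fold line in each. The size of the p-values depended on the method. With limma on log2(FPKM + 0.1) the adjusted p was 3.725e-06 for CDK6, 1.002e-05 for CCND2, 1.687e-05 for CCND3 and 5.141e-07 for CDKN2C. Of the 12 growth-signal factors 1 in place of 2 was a DEG under both limma fits. Leaving out each library gave 2777 to 2850 DEGs.

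The replicate numbers gave no sign of pairing, as deviations of same-numbered libraries correlated at -0.032, 0.015 and -0.011. These values include counting error and cannot exclude pairing. With the replicate block there were 2753 DEGs, and the same 3 members were DEGs. At 10 to 60 counts per library, depth limits CDKN1C the most.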
